A study of Mus musculus with 2 samples.

Results

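The Krüppel-like (Klf), Sp and Egr factors are zinc-finger transcription factors, and their transcripts were followed here in 3T3-L1 cells that had received an siRNA against Phf21a. The members were all genes whose symbol in the array's probe annotation reads Klf, Sp or Egr followed by the family number, taken from probe sets annotated to 1 gene. This gave 27 genes on 65 probe sets, of 18193 genes with such a probe set: 16 Klf, 7 Sp and 4 Egr genes. 3T3-L1 is a mouse preadipocyte line that differentiates into fat cells. Cells were transfected with siRNA against Phf21a, which encodes BHC80, a subunit of the LSD1 corepressor complex, or with the control siRNA siGL3. The labels give both the same handling: grown in DMEM with 25 mM glucose and 10% FBS, given insulin, dexamethasone and 3-isobutyl-1-methylxanthine 24 h after transfection, and harvested 24 h after that. Total RNA of each group was hybridised to 1 Affymetrix array, and the labels do not say whether it came from a single culture or a pool, so with n = 1 a group the values carry no replicate error and allow neither a test nor a p-value.

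Klf and Sp proteins share a zinc-finger domain that binds GC-rich and CACCC elements, while Egr proteins bind a related GC-rich site. Sp1 and Sp3 act at a large share of housekeeping promoters. Egr genes and several Klf genes are immediate-early or hormone-responsive, and in preadipocytes they form part of the cascade that the adipogenic cocktail sets off. In that cascade Klf4, Klf5, Klf6, Klf9, Klf15 and Egr2 are known to promote adipogenesis, and Klf2, Klf3, Klf7 and Egr1 to restrain it.

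Because the factors bind the same kinds of element that many of their own promoters carry, promoter windows of 5 members are printed for reference. Klf2 and Klf7 were chosen as anti-adipogenic members with higher signals in Phf21a siRNA cells, and Klf3 and Klf4 as members with lower signals. These directions are those of the probe set with the highest mean signal. On it the Klf7 difference was small, and the probe sets of Klf3 disagreed, as given below. No link between promoter elements and direction was tested. Egr2 was chosen for its CArG box, the element bound by serum response factor. Of the Egr genes only Egr2 and Egr4 had a window, so Egr1 and Egr3 were not searched for any element. Each window is from RefSeq and runs from 250 bases before to 50 bases after the annotated start. Capitals mark the GC box GGGCGG and the CACCC box, both searched on both strands, so CCGCCC and GGGTG are capitalised as well.
Klf2 (GRCm38.p6, chr8:72318812-72319111, plus strand): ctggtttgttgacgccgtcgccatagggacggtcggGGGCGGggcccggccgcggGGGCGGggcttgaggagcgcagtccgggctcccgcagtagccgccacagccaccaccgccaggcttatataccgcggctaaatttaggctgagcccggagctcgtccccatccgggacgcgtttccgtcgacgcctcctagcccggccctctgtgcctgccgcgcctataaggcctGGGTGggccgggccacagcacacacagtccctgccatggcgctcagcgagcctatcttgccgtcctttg
Klf7 (GRCm38.p6, chr1:64121340-64121639, minus strand): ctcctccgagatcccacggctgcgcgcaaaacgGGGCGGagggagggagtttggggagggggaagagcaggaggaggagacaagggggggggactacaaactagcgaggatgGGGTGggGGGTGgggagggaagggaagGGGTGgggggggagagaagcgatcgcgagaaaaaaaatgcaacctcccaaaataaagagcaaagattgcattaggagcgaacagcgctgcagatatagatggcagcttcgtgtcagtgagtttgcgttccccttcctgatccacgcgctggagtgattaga
Klf3 (GRCm38.p6, chr5:64803271-64803570, plus strand): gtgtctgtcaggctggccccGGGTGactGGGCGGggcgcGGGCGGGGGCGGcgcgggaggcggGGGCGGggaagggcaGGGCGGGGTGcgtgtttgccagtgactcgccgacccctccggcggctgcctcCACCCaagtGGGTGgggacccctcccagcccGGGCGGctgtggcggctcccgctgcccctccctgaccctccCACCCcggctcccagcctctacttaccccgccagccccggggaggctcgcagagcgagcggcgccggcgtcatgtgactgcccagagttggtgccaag
Klf4 (GRCm38.p6, chr4:55532426-55532725, minus strand): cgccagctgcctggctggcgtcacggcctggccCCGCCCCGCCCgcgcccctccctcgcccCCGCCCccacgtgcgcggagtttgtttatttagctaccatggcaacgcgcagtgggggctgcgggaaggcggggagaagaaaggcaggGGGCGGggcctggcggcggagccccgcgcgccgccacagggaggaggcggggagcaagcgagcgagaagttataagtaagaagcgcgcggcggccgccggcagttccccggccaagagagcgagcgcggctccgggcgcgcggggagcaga
Egr2 (GRCm38.p6, chr10:67537316-67537615, plus strand): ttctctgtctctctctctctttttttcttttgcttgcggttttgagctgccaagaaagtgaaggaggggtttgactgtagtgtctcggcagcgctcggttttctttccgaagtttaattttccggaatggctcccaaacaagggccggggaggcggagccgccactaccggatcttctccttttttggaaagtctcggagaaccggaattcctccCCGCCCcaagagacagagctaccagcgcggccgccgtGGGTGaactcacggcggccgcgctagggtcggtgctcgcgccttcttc

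The Klf3 window held 6 GC boxes and 5 CACCC boxes, a GC box there overlapping a CACCC box. The Klf4 window held 4 GC boxes and 0 CACCC boxes. The Klf2 window held 2 GC boxes and 1 CACCC box, and the Klf7 window 1 GC box and 3 CACCC boxes. The windows thus differed in the kind and number of elements, the Klf3 window holding the most of both. The Egr consensus GCGNGGGCG matched 3 times in Klf3, 2 times in Klf4, 1 time in Klf2 and 0 times in Klf7, and each match overlapped a GC box. RefSeq windows were matched for 19 of the 27 members, 26 windows in all. A GC box was present in 16 of these 26 windows, against 35.7% of all 32851 windows searched. A CACCC box was present in 21, against 57.5%. An Egr consensus was present in 6, against 5.55%. Counted by gene, the 3 elements were present in 14, 16 and 6 of the 19 members. Members' windows were also richer in G and C (median 62.3%) than all windows (median 52.7%), and GC-rich letters alone make such matches more frequent. A CArG box was found in 4 of the 5 listed Egr2 windows, in 0 windows of the other 18 members, and in 1.63% of all windows. Some of these Egr2 windows overlap one another, so the matches are not all separate.

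Signals of the targeted gene and of cell-type markers were inspected first. Phf21a had a signal of 306 on the Phf21a siRNA array, against 768 on the control array (log2 ratio -1.33), and its other detected probe sets were lower too. Signals are MAS5 values in arbitrary units, and detection required a signal of at least 51.3, the median of all signals, on either array. All 8 preadipocyte markers were detected, between 880 and 29961 on the Phf21a siRNA array and between 1087 and 27291 on the control array. On the probe set with the highest mean signal, Dlk1 was 2.07-fold lower and Pdgfrb 1.79-fold higher, and the other 6 were within 1.5-fold. Second probe sets gave log2 ratios of -1.78 for Dlk1, 0.13 for Pdgfrb and -0.88 for Col3a1. The summed signals of the 8 markers, which weight the brightest genes most, were 68610 on the Phf21a siRNA array and 72700 on the control array. Of the 6 adipogenic markers 5 were detected (summed signals 18535 on the Phf21a siRNA array and 16243 on the control array). Cebpa, which comes up later in adipogenesis, was not detected, with no signal above 45.0. Of the 5 smooth muscle markers 3 were detected (summed signals 14030 on the Phf21a siRNA array and 10905 on the control array), with Tagln 2.05-fold higher and Myh11 and Cnn1 undetected, and their part in the results below was not tested. The endothelial markers, which bear on Klf2 and Klf4 because both are abundant in vessels, were detected in 0 of 7 cases, with no signal above 26.5 on the Phf21a siRNA array or 27.1 on the control array.

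Of the 27 members 20 were detected, through 47 of their 65 probe sets, Klf14 and Sp7 on the control array alone. Each gene was represented by its detected probe set with the highest mean signal. Log2 ratios are Phf21a siRNA over control siRNA, and "higher" and "lower" refer to the Phf21a siRNA array. The value after ± is a local spread, the scatter of log2 ratios among the 1000 detected genes nearest in signal, which is not the spread between cultures. Of the 20 detected members 1 was at least 1.5-fold higher (Klf2) and 7 were at least 1.5-fold lower (Klf3, Klf4, Klf16, Sp4, Sp7, Egr1 and Egr3). Over all 11301 detected genes the shares were 15.2% higher and 13.9% lower by that fold. The median log2 ratio of the 20 members was -0.15, against 0.03 over all detected genes. It was -0.05 with the probe sets of a gene averaged and -0.40 without suffixed probe sets (suffix x, s or a, which can match several transcripts). Their median absolute log2 ratio was 0.50, against 0.36 over all detected genes. The log2 ratio exceeded the local spread in 9 of 20 members, against 32.8% of all detected genes. At 2-fold, 1 member was higher and 4 were lower, against 5.72% and 5.47% of all detected genes. Scaling to the poly-A control RNAs moved the median of all genes by -0.73 and put every member but Klf2 below 0, so all ratios here are relative to the bulk of genes. In bulk RNA a change in the share of cells that express a gene and a change in RNA per cell cannot be told apart.

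**Figure D1:**
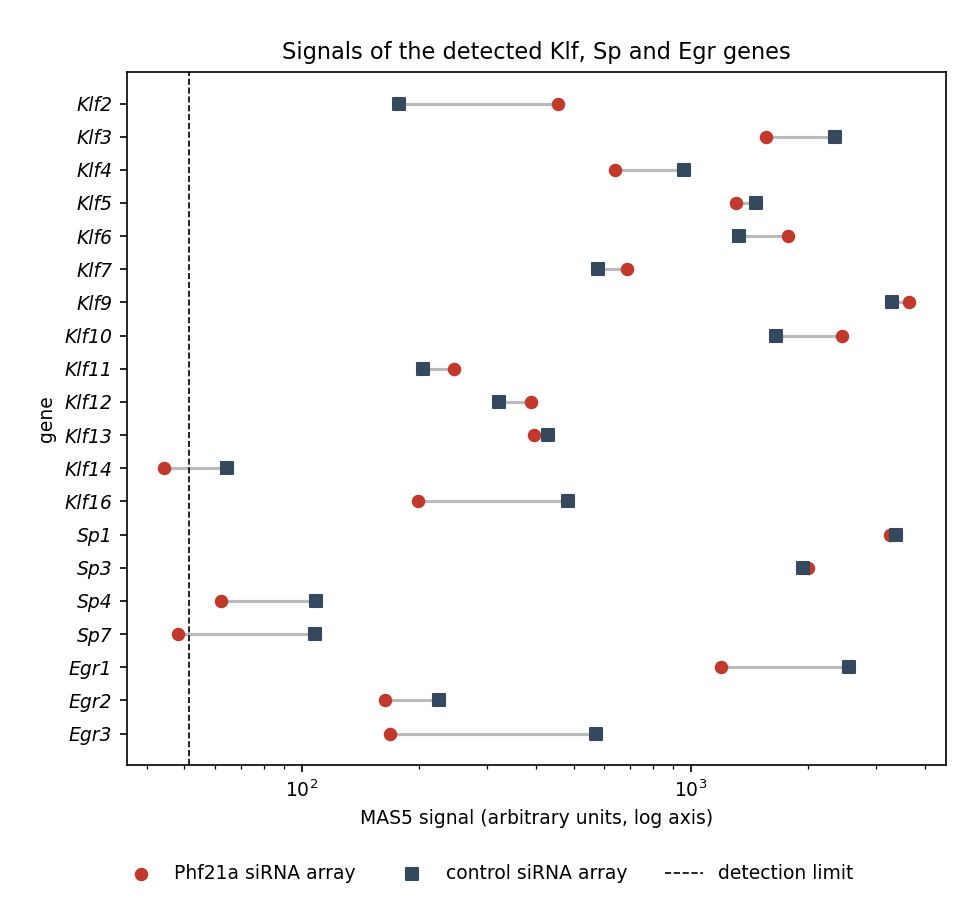
MAS5 signal (log axis, arbitrary units) of each of the 20 detected Klf, Sp and Egr genes on the Phf21a siRNA array (circles) and the control array (squares), 1 array each, with the detection limit of 51.3 dashed. The widest gaps belong to Egr3, Klf2 and Klf16. Signals of different probe sets are not comparable, so the order of genes along the axis has no meaning.

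The anti-adipogenic members went both ways. Klf2, a repressor of the Pparg promoter in preadipocytes, had a signal of 456 on the Phf21a siRNA array, against 178 on the control array (Entrez gene 16598, 2.56-fold higher, log2 ratio 1.35 ± 0.54). No other member passed 1.5-fold higher on its representative probe set, and Klf2 rests on 1 probe set. Endothelial markers were not detected, as given above, and their part in the Klf2 difference was not tested. Leukocyte markers, of which 5 of 8 were detected, summed to 1492 on the Phf21a siRNA array and 876 on the control array. Most of each sum came from Cd14 (804 with Phf21a siRNA, 479 with control siRNA) and Csf1r (452 with Phf21a siRNA, 200 with control siRNA). Of the 5 detected markers 4 were above 0 and 1 below. The lower marker was Laptm5, at 22.3 with Phf21a siRNA, under the detection limit, against 66.4 with control siRNA (-1.58 ± 1.16). Ptprc, a pan-leukocyte gene, did not reach that limit (12.2 with Phf21a siRNA, 6.87 with control siRNA). The part of the leukocyte markers in the Klf2 difference was not tested.

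Egr1, an immediate-early factor that opposes fat cell differentiation, had a signal of 1196 on the Phf21a siRNA array, against 2545 on the control array (Entrez gene 13653, 2.13-fold lower, -1.09 ± 0.46). It too rests on 1 probe set. Klf2 and Egr1, members of the same functional group, thus differed in opposite directions.

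Klf3, a repressor that recruits the corepressor CtBP and binds the Cebpa promoter, had a signal of 1560 on the Phf21a siRNA array, against 2346 on the control array (Entrez gene 16599, log2 ratio -0.59 ± 0.46, just past 1.5-fold lower). Its 6 detected probe sets disagreed, 3 below 0 and 3 above. Those with the next highest signals gave 530 with Phf21a siRNA against 824 with control siRNA (-0.64), and 664 with Phf21a siRNA against 548 with control siRNA (0.28). The dimmest detected one, at 87.3 on the Phf21a siRNA array and 36.7 on the control array, gave 1.25, the control signal being under the detection limit. Averaged over its 6 probe sets the log2 ratio of Klf3 was 0.0018, so the lower value depends on the probe set used.

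Klf7, which inhibits adipogenesis in preadipocytes, had a signal of 686 on the Phf21a siRNA array, against 577 on the control array (Entrez gene 93691, 0.25 ± 0.53). The other 3 probe sets gave larger ratios, at 740, 340 and 297 with Phf21a siRNA against 400, 191 and 188 with control siRNA (0.89, 0.83 and 0.66). All 4 probe sets of Klf7 were higher, and the one with the highest mean signal gave the smallest ratio.

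The pro-adipogenic members lay closer to 0. Klf4, which activates Cebpb at the start of adipogenesis, had a signal of 639 on the Phf21a siRNA array, against 960 on the control array (Entrez gene 16600, log2 ratio -0.59 ± 0.50, just past 1.5-fold lower). Its second probe set was lower as well, at 264 with Phf21a siRNA against 439 with control siRNA (-0.73). Klf4 was the only detected pro-adipogenic member at least 1.5-fold changed, and under quantile normalization it no longer reached 1.5-fold. Egr2, which acts on Cebpb together with Klf4, had a signal of 164.0 on the Phf21a siRNA array, against 226 on the control array (Entrez gene 13654, -0.46 ± 0.61), and its second probe set gave -0.38. This pair of early activators was below 0 on all 4 of their probe sets. Cebpb itself was at 7743 on the Phf21a siRNA array and 7761 on the control array (-0.0033 ± 0.33), and its second probe set gave -0.32.

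Klf5, an activator of Pparg downstream of the C/EBP factors, had signals of 1311 on the Phf21a siRNA array and 1471 on the control array (Entrez gene 12224, -0.17 ± 0.47), and its second detected probe set gave 0.13. Klf6, which represses the preadipocyte gene Dlk1, had signals of 1783 on the Phf21a siRNA array and 1327 on the control array (Entrez gene 23849, 0.43 ± 0.47). Of its 5 probe sets 4 lay between 0.36 and 0.46, and the dim remaining one was at -0.06. Klf6 was thus read alike by its brighter probe sets, at a size within the local spread.

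Klf9, a glucocorticoid-responsive activator of Pparg, had signals of 3627 on the Phf21a siRNA array and 3286 on the control array (Entrez gene 16601, 0.14 ± 0.40). Its 6 detected probe sets ran from -0.36 to 0.14, with 3 on each side of 0. Klf15, an inducer of the glucose transporter gene Slc2a4, was not detected, at 1.42 on the Phf21a siRNA array and 1.60 on the control array (Entrez gene 66277), so it has no ratio.

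Set side by side, the 5 detected pro-adipogenic members had a median log2 ratio of -0.17 (from -0.59 to 0.43) and the 4 anti-adipogenic members a median of -0.17 (from -1.09 to 1.35). The difference of the medians was 0.0030. The groups overlapped, and the anti-adipogenic members spanned a range of 2.44 log2 units, against 1.02 for the pro-adipogenic members. With every probe set of a gene averaged, the difference of medians was -0.37, with Klf3 at 0.0018 and Klf7 at 0.66. The difference was 0.29 without suffixed probe sets and 0.58 with a stricter detection limit, which left out Klf2 and Egr2, so its sign depends on the processing. Members of either role lay on both sides of 0.

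**Figure D2:**
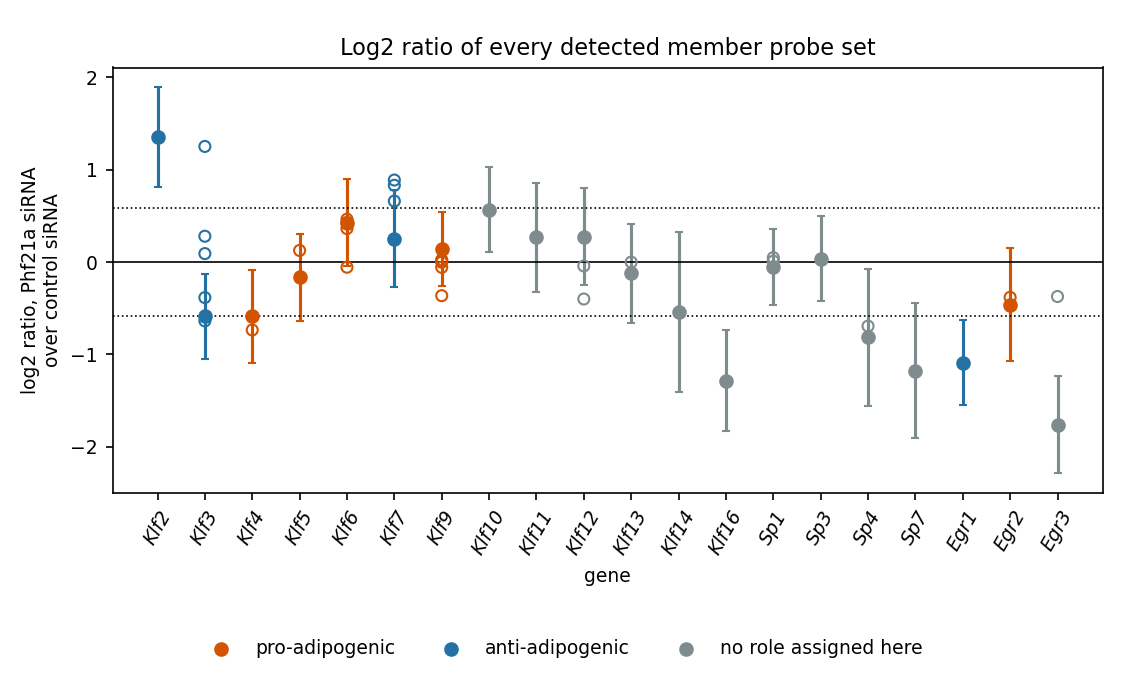
Log2 ratio (Phf21a siRNA over control siRNA) of every detected probe set of the 20 detected members, coloured by known role in adipogenesis. Filled points are the probe set that represents the gene, with bars of ± its local spread. Open points are the gene's other detected probe sets, and dotted lines mark 1.5-fold. Klf3 spans from -0.64 to 1.25, whereas the 4 probe sets of Klf7 are all above 0.

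The Egr genes were the subfamily with one direction. Egr3, an immediate-early gene known from muscle spindles and lymphocytes, had a signal of 169 on the Phf21a siRNA array, against 572 on the control array (Entrez gene 13655, 3.39-fold lower, -1.76 ± 0.52). Its second probe set, at 69.5 with Phf21a siRNA against 90.0 with control siRNA, gave -0.37, so the size depends on the probe set and averaged -1.07. The 3 detected Egr genes were all lower, with a median of -1.09, and all 5 of their detected probe sets were below 0. Over all detected genes 5403 of 11301 were below 0. Egr2, and Egr3 on its second probe set, lay within the local spread. The 3 Egr genes stayed below 0 under every scaling tried. Egr4 was not detected, at 9.64 on the Phf21a siRNA array and 15.5 on the control array.

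Genes that act with the Egr factors were read beside them. Nab2, a corepressor that binds Egr proteins and is itself induced by them, had a signal of 819 on the Phf21a siRNA array, against 1382 on the control array (1.69-fold lower, -0.76 ± 0.47). Elk4, a ternary complex factor that activates Egr genes with serum response factor, had 552 on the Phf21a siRNA array, against 897 on the control array (1.62-fold lower, -0.70 ± 0.53), and its 3 probe sets ran from -1.69 to -0.70. The 8 Egr partners and upstream factors were all detected. These 2 were the ones past 1.5-fold lower, against 13.9% of all detected genes. In the other direction 0 were past it, and the median was -0.10. Of the 8 genes 4 were above 0 and 4 below. The highest was Mrtfa (0.52 ± 0.51), just beyond its local spread. Srf itself was at 0.16 ± 0.52 and Nab1 at -0.37 ± 0.44.

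Other immediate-early genes were read for comparison. Of 19 genes 17 were detected, 1 of them past 1.5-fold higher and 0 past 1.5-fold lower, and their median log2 ratio was -0.02. The shares over all detected genes were 15.2% higher and 13.9% lower. Of the 17, 11 were below 0 and 6 above. Fos had signals of 415 on the Phf21a siRNA array and 430 on the control array (-0.05). The gene furthest from 0 was Btg2, an antiproliferative gene, at 753 with Phf21a siRNA against 356 with control siRNA (1.08 ± 0.51), and its second probe set gave -0.05. Next were the orphan nuclear receptor genes Nr4a2 (0.55 ± 0.52) and Nr4a1 (-0.46 ± 0.51). The 5 detected probe sets of Nr4a2 ran from -0.32 to 0.55. No test of the difference between the Egr genes and this list was possible with 1 array per group.

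The remaining Klf genes included the lowest of that subfamily. Klf16, a Klf repressor first described at a dopamine receptor promoter, had a signal of 199 on the Phf21a siRNA array, against 484 on the control array (Entrez gene 118445, 2.43-fold lower, -1.28 ± 0.55), on its only probe set. Klf10, a TGF-beta-inducible repressor, had signals of 2449 on the Phf21a siRNA array and 1654 on the control array (Entrez gene 21847, 1.48-fold, 0.57 ± 0.46), just short of 1.5-fold. Its close relative Klf11 was at 247 with Phf21a siRNA and 205 with control siRNA (0.27 ± 0.59). Klf10 lay outside its local spread and Klf11 within it.

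Klf12, a CtBP-binding repressor like Klf3, was at 388 on the Phf21a siRNA array and 321 on the control array (0.28 ± 0.53), but its other detected probe sets gave -0.40 and -0.04. Klf13 was at 395 with Phf21a siRNA and 431 with control siRNA (-0.12 ± 0.53), and its second detected probe set gave -0.00057. The imprinted gene Klf14 was detected on the control array alone, at 44.3 on the Phf21a siRNA array and 64.4 on the control array (-0.54 ± 0.87). None of these differed by more than its local spread. The erythroid factor Klf1 (15.3 with Phf21a siRNA and 21.5 with control siRNA) and Klf17 (at most 20.1 with Phf21a siRNA and 28.7 with control siRNA) were not detected. Over the 13 detected Klf genes the median log2 ratio was 0.14, with 1 at least 1.5-fold higher and 3 lower. Among all detected genes 15.2% were higher and 13.9% lower by that fold.

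Among the Sp genes the ubiquitous pair hardly differed. Sp1, the ubiquitous GC-box activator, had signals of 3242 on the Phf21a siRNA array and 3364 on the control array (Entrez gene 20683, -0.05 ± 0.41), and its 3 probe sets ran from -0.05 to 0.05. Sp3, which binds the same sites, had 1996 on the Phf21a siRNA array and 1949 on the control array (Entrez gene 20687, 0.03 ± 0.46). These ubiquitous members were the ones nearest to 0.

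The lower Sp genes were dim. Sp4, a factor abundant in neurons, had 62.0 on the Phf21a siRNA array, against 109 on the control array (Entrez gene 20688, -0.82 ± 0.74), and its second probe set gave -0.69. Sp7, the osteoblast factor osterix, had 48.1 on the Phf21a siRNA array, against 109 on the control array (Entrez gene 170574, -1.17 ± 0.73), the value in Phf21a siRNA cells lying under the detection limit. Near this limit the local spread is wide, and both ratios are uncertain. Sp5, Sp6 and Sp8 were not detected, with no signal above 35.3 on the Phf21a siRNA array or 19.7 on the control array.

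**Figure D3:**
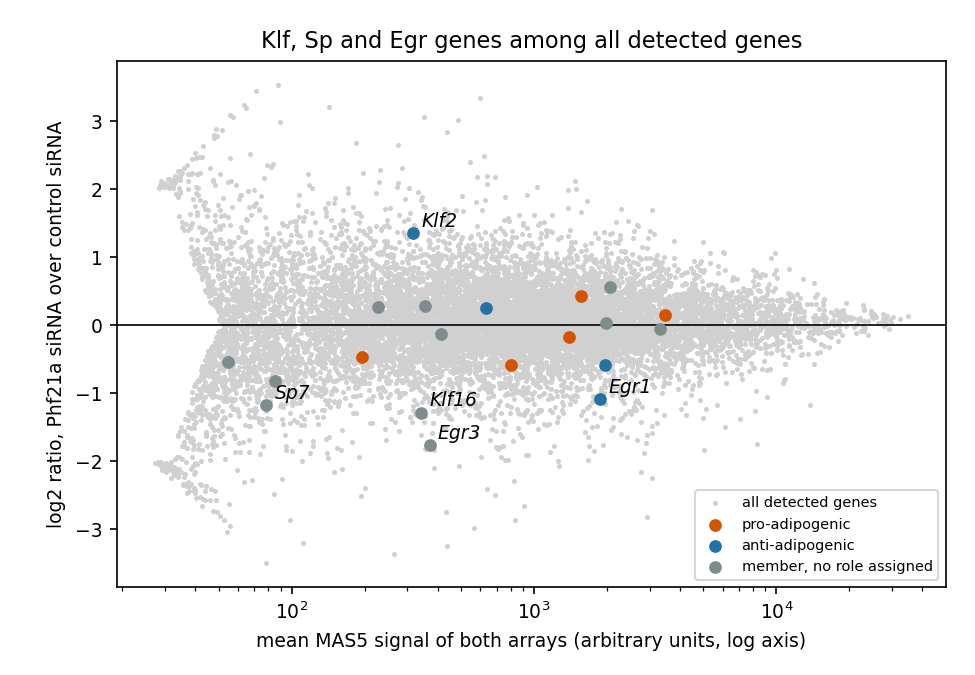
Log2 ratio (Phf21a siRNA over control siRNA) against the mean MAS5 signal of both arrays (log axis) for the 11301 detected genes in grey and the 20 detected members in colour. Members at least 2-fold changed are named: Klf2 above 0, and Egr1, Egr3, Klf16 and Sp7 below it.

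Scatter narrows at higher signals, so the members were also read among brighter genes. Of 10 members whose mean signal over both arrays reached the 75th percentile of all signals (461), 0 were past 1.5-fold higher and 3 past 1.5-fold lower (Klf3, Klf4 and Egr1). Over all 6750 genes of that brightness these shares were 11.8% higher and 9.41% lower. The median of the 10 members was -0.0093, against 0.05 over those genes. Klf2, Klf16 and Egr3, which differed most, were not among them.

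Cofactors and targets of the family were described by lists. The 14 Klf and Sp cofactors were all detected, and 2 were past 1.5-fold higher and 1 past 1.5-fold lower (median 0.10). Over all detected genes these shares were 15.2% and 13.9%. Ep300, an acetyltransferase that coactivates Klf proteins, was at 954 on the Phf21a siRNA array and 574 on the control array (0.73 ± 0.51). Fbxw7, a ubiquitin ligase subunit that degrades Klf2 and Klf5, was at 617 with Phf21a siRNA and 378 with control siRNA (0.71 ± 0.52). Hdac1, a deacetylase used by Sp1 and by Klf repressors, was at 2377 on the Phf21a siRNA array and 4439 on the control array (-0.90 ± 0.40). The CtBP genes used by Klf3 and Klf12 were both at 0.12.

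Of 10 adipogenic targets 8 were detected, with 3 at least 1.5-fold higher and 2 lower, against 15.2% and 13.9% of all detected genes. Pparg, which Klf2 represses and Klf5 and Klf9 activate, was at 814 on the Phf21a siRNA array and 512 on the control array (0.67 ± 0.53). Dlk1, which Klf6 represses, was at 5940 on the Phf21a siRNA array and 12290 on the control array (-1.05 ± 0.31). Pnpla2, a lipase gene that Egr1 represses, was at 568 on the Phf21a siRNA array and 238 on the control array (1.25 ± 0.52). Fabp4 was at 0.74 ± 0.37. Slc2a4, a Klf15 target, was at 8.99 on the Phf21a siRNA array and 70.8 on the control array. No fold is given because the lower value is under the signal floor. Slc2a4 still counts among the 2 lower targets, and it was detected on the control array alone.

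Glucocorticoid-induced genes were read because Klf9 and Klf15 respond to dexamethasone. Of these 10 genes, 1 was past 1.5-fold lower and 0 past 1.5-fold higher (median 0.11), against 13.9% and 15.2% of all detected genes. The lowest was Errfi1, a feedback inhibitor of the EGF receptor, at 2559 on the Phf21a siRNA array and 4318 on the control array (-0.75 ± 0.40). Glul, glutamine synthetase, was at -0.43 (0.38 on its second probe set), and the highest was Ddit4, an mTOR inhibitor, at 0.41. Like Klf9, the glucocorticoid marker genes Fkbp5 (-0.04) and Tsc22d3 (0.16) lay within their local spread. The probe sets of Tsc22d3 ran from -0.40 to 0.16. Of the 10 genes 4 lay beyond their local spread, against 32.8% of all detected genes.

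**Figure D4:**
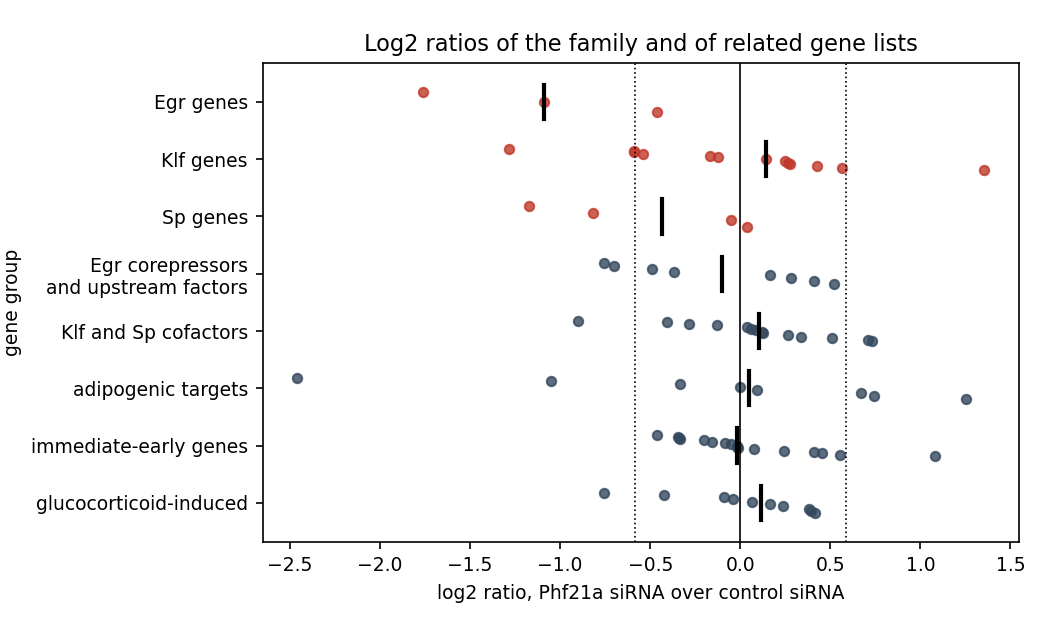
Log2 ratios (Phf21a siRNA over control siRNA) of the detected Egr, Klf and Sp genes (red) and of the related gene lists (dark), 1 point per gene, with the median as a bar and 1.5-fold as dotted lines. The 3 Egr genes are all below 0, as are 11 of the 17 other immediate-early genes, whose median is -0.02. The lowest adipogenic target is Slc2a4, whose lower signal was raised to the floor.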

How the data were processed

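Per the submitters' processing notes, the deposited values are MAS5 signal intensity on a linear scale (MAS5 version not given in the sources used here). On both arrays the mean of signals without the lowest and highest 2% was 500. This scaling cannot show a change in messenger RNA per cell, and MAS5 leaves low signals noisy. The number of arrays (1 per siRNA) limits the precision.

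Of 45101 probe sets 34945 were annotated to 1 gene. All 27 members matched a RefSeq gene table by Entrez number, and 0 symbols changed. Klf8, Sp2 and Sp9 were not analysed here. Signals under 12.9, the 25th percentile over both arrays, were set to that floor before taking log2. Detection required 51.3, the median over both arrays, on either array. Probe sets ending in _x_at did not represent a gene where another was detected, but count among its probe sets. The local spread is the half-width of the central range of log2 ratios (16th to 84th percentile). The text names every member, Phf21a, the listed partners, cofactors and targets past 1.5-fold, and the 3 furthest genes of the immediate-early and glucocorticoid lists. Srf, Nab1, Mrtfa, Fos, the CtBP genes, Cebpb, Cebpa, Slc2a4, Fkbp5, Tsc22d3, Col3a1 and Ptprc were named after their values were seen. So were Cd14, Csf1r and Laptm5. Members and lists were chosen with earlier results of these data known.

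The procedure was tested on simulated data with less scatter than the local spread found here. Recovery was required of bright genes only, so it is no check of the calls on dim genes. Tools were pandas 2.3.3 and numpy 2.4.6 under Python 3.11.15, statsmodels 0.14.6 for loess, scipy 1.17.1, and matplotlib 3.10.9 for plots. Alternatives were other scalings, floors, probe set summaries, detection limits and folds.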

Additional observations from a re-analysis of the deposited data

How the results depend on the processing

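No paired analysis was possible because each group holds 1 array. Scaling to the poly-A controls moved the median of all genes by -0.73 and to the hybridisation controls by -0.23, and changes relative to that shift stay as reported. Under poly-A scaling 13 members were at least 1.5-fold lower, but the median of all genes was -0.70, itself past that fold. The medians were -0.87 for all members, -0.89 for pro-adipogenic and -0.89 for anti-adipogenic members. There, every member above 0 except Klf2 (0.63) was below 0, Klf10 at -0.16. Under hybridisation scaling the medians were -0.37 for all members and -0.39 for pro-adipogenic ones. With probe sets averaged, Klf3 was at 0.0018 in place of -0.59, 2 members were higher (Klf2 and Klf7), the anti-adipogenic median was 0.33 and the pro minus anti difference -0.37. Without suffixed probe sets the median of members was -0.40 and of pro-adipogenic ones 0.13. With the stricter detection limit 0 members were higher, since Klf2 was under that limit, the anti-adipogenic median was -0.59 and the difference 0.58. Among members chosen by mean signal at the 75th percentile, an alternative added after seeing the data, 0 were higher and 3 lower. With no detection limit 2 were higher, the dim Sp6 being added, and at 2-fold 4 were lower. Over 222 single-gene values, Phf21a included, 201 moved by no more than their local spread. Many could not move that far. Median centring and hybridisation scaling shifted all genes alike, by less than any member's local spread. A changed detection limit left the ratio of each gene kept as it was. The count is therefore no measure of how stable the ratios are. Medians were held to the local spread divided by the square root of the number of genes. Signals near the detection limit, as for Sp4, Sp7 and Klf14, limit those ratios.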
